A study of Mus musculus with 2 samples.

Results

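The miRNA genes Mir10a, Mir10b, Mir196a-1, Mir196a-2, Mir196b and Mir615 lie inside the 4 Hox clusters of the mouse. They were taken by gene identifier and symbol from tables of 1973 miRNA genes, and all 6 were found there. The tables came from microRNA-seq of midbrain from B6NCrl mouse embryos at embryonic day 16.5. There were 2 libraries, biological replicates of 1 group, each from midbrains pooled over male and female embryos described as healthy, with 37 embryos in the pool of replicate 2. With 1 group the questions were how abundant each gene was and how far the libraries differed.

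Hox genes encode transcription factors that pattern the body axis from head to tail, and in the central nervous system their transcripts are known from the hindbrain and spinal cord, with the midbrain lying in front of their domain. The clusters also hold hairpins from which mature miRNAs are cut, short RNAs that repress mRNAs through pairing of their seed, bases 2 to 8. The mir-10 genes lie beside Hox genes of paralogue group 4 and are also known from blood vessels and blood cells. The mir-196 genes lie near group 9, and Mir615 lies within Hoxc5.

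Each hairpin sat in the Hox cluster that its family is known for, on assembly mm10 as annotated in GENCODE M21. Mir10a (ENSMUSG00000065519, chromosome 11, 96317165 to 96317274, plus strand) lay between Hoxb5 and Hoxb4, 993 bases from Hoxb4 and inside no other annotated transcript. Mir10b (ENSMUSG00000065500, chromosome 2, 74726070 to 74726137, plus strand) lay in introns of Hoxd4 and Hoxd3 transcripts. Mir615 (ENSMUSG00000076010, chromosome 15, 103014910 to 103015001, plus strand) was intronic in Hoxc5. Mir196a-2 (ENSMUSG00000065488, chromosome 15, 102973350 to 102973434, plus strand) lay between Hoxc10 and Hoxc9, in an intron of a single long Hoxc5 transcript. Mir196b (ENSMUSG00000065443, chromosome 6, 52230081 to 52230165, minus strand) overlapped an exon of Hoxa9 transcripts and was 1032 bases from Hoxa10. Mir196a-1 (ENSMUSG00000065546, chromosome 11, 96265164 to 96265265, plus strand) lay 6192 bases from Hoxb9 and inside no other annotated transcript.

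**Figure D1:**
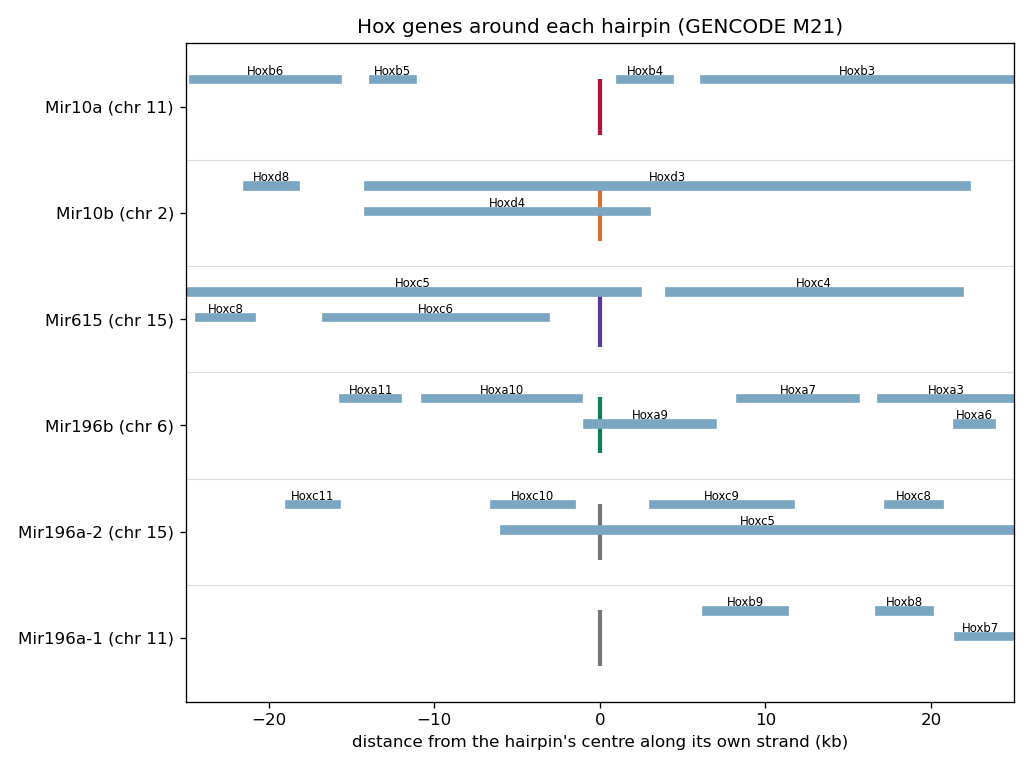
Hox genes (bars) within 25 kb of each hairpin (coloured line at 0), with distance in kb along the hairpin's own strand on the x axis and 1 row per miRNA gene. Both mir-10 hairpins sit at a group 4 Hox gene, Mir10a 993 bases from Hoxb4 and Mir10b within Hoxd4, and bars are cut off at the edge of the plot.

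The mature sequences of the 5′ arms, from RefSeq (GRCm38.p6), show which members can be told apart by a read, and all 6 genes matched that table. Capitals mark the seed.
miR-10a-5p: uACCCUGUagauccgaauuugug
miR-10b-5p: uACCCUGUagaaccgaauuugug
miR-196a-5p: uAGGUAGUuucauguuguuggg
miR-196b-5p: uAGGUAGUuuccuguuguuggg
miR-615-5p: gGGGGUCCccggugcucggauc
The 6 genes carried 3 seeds on this arm, 1 shared by the mir-10 pair, 1 by the mir-196 genes and 1 in Mir615 alone. Counting from 1 at the 5′ end, miR-10a-5p and miR-10b-5p differed by the substitution U12A, and miR-196a-5p and miR-196b-5p by A12C. In each family the 1 differing base thus lay at the same position, outside the seed. Each of the 6 genes also has a 3′ arm product, and the gene counts do not say which arm a read came from. That of Mir615, with a seed of its own, is shown as an example.
miR-615-3p: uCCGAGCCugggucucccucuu

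Mir196a-1 and Mir196a-2 encode the same 22-base miR-196a-5p, and their hairpins shared that run of 22 bases and no longer one. A read that lies wholly inside it has 2 equally good places. Among 2202 miRNA hairpins of GENCODE M21, searched on both strands, the longest run that another hairpin shared was 15 bases for Mir10a and Mir10b (with each other) and 14 for Mir615. Mir196b shared no run of 14 bases. No other hairpin held the whole 5′ arm sequence of these 4 genes.

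Together the 6 genes held 7321 sense-strand reads in replicate 1 and 6470 in replicate 2, out of 6151299 and 5312642 sense-strand reads over all miRNA genes. That was 0.119% (95% Wilson interval 0.116 to 0.122) and 0.122% (0.119 to 0.125) of reads, or 0.1204% ± 0.00196 (SD, n = 2). The intervals overlapped, so the set took up about the same small share of both libraries. Most of it was mir-10. Mir10a and Mir10b held 95.4% of the set's reads in replicate 1 (94.9 to 95.9) and 96.8% in replicate 2 (96.4 to 97.2). Wilson intervals cover counting error only and not the spread between pools. The sources name no molecular identifiers, so reads may not be independent and the intervals may be too narrow. These are bulk samples, in which fewer cells of a type and less RNA per cell cannot be told apart.

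Detection was set at 10 sense reads in each library. It was reached by 4 of the 6 genes, against 411 of 1973 genes in the tables (20.8%) and 404 of the 1051 genes with a Mir symbol (38.4%). The median level over all 6 genes was 22.8 CPM (reads of the gene scaled to a common total of 1e+06 sense-strand reads of miRNA genes), against 0 CPM over all 1973. A single read was worth 0.163 CPM in the first library and 0.188 CPM in the second. None of the 6 genes had a read on the opposite strand.

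Mir10a was the most abundant, with 4372 reads (711 CPM) in replicate 1 and 3870 (728 CPM) in replicate 2, a mean of 720 ± 12.5 CPM (SD, n = 2). It ranked 111 among 1973 genes by mean CPM, 112 in replicate 1 and 108 in replicate 2. Its counting intervals, 690 to 732 CPM and 706 to 752 CPM, overlapped on summed counts. Whether its level differed between the pools depended on the scaling, as given below. The nearest genes in mean level were Mir3071 (737 ± 22.6 CPM) and Mir3099 (723 ± 23.8) just above and Mir674 (716 ± 10.2) and Mir676 (699 ± 74.1) just below. All 4 differed from it by less than the larger SD of the pair. Here and below, neighbours were picked for closeness in mean level, so small differences from the member follow from that choice.

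Mir10b followed, with 2613 reads (425 CPM) in replicate 1 and 2394 (451 CPM) in replicate 2, a mean of 438 ± 18.3 CPM, at rank 134. Its neighbours in level were Mir485 (439 ± 57.6 CPM), Mir384 (438 ± 4.10), Mir7-2 (437 ± 69.5) and Mirlet7c-1 (428 ± 34.2), none of which differed from it beyond the spread. Mir7-2 and Mirlet7c-1 each have a second gene copy with the same mature product, and reads that fit both are counted to neither, so their own levels are uncertain. Of the reads of the mir-10 pair, Mir10a gave 62.6% in replicate 1 and 61.8% in replicate 2, with Wilson intervals of 61.4 to 63.7 and 60.6 to 63.0. The balance between the paralogues was therefore the same in both pools within counting error. On the CPM scale the log2 ratio of Mir10a over Mir10b was 0.74 in replicate 1 and 0.69 in replicate 2, and the lowest Mir10a value lay above the highest Mir10b value.

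A miRNA read is a whole short RNA, so CPM here is not a level per length. The annotated Mir10a hairpin (110 bases) is longer than that of Mir10b (68 bases). Per 100 bases of hairpin, Mir10a had 646 and 662 CPM in replicates 1 and 2, against 625 and 663 CPM for Mir10b. On that scale the ranges overlapped and the log2 ratio was 0.02. The order of the mir-10 pair thus holds per gene and is not resolved per hairpin base.

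Mir615 was lower, at 200 reads (32.5 CPM) in replicate 1 and 136 (25.6 CPM) in replicate 2, a mean of 29.1 ± 4.89 CPM, at rank 272. Mir10b was 15.1-fold above it on the CPM scale, a gap far beyond the SD of either gene. Its neighbours in level were Mir152 (31.4 ± 0.951 CPM) and Mir34b (30.6 ± 2.26) above and Mir486 (26.6 ± 1.27) and Mir582 (26.4 ± 2.61) below, all within 1 SD of Mir615.

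Mir196b gave nearly all reads counted to the mir-196 family. It had 129 reads (20.97 CPM) in replicate 1 and 64 (12.05 CPM) in replicate 2, a mean of 16.5 ± 6.31 CPM, at rank 297. Replicate 1 was the higher library and the counting intervals, 17.7 to 24.9 CPM and 9.43 to 15.4 CPM, did not overlap. The lower value of Mir615 lay above the higher value of Mir196b on the CPM scale. It did so per 100 bases too, at 35.3 and 27.8 CPM for Mir615 against 24.7 and 14.2 CPM for Mir196b. The nearest genes in level were Mir466n (17.1 ± 0.817 CPM), Mir211 (16.9 ± 1.13), Mir208b (15.9 ± 1.19) and Mir3057 (15.1 ± 2.39), and each differed from Mir196b by less than the SD of Mir196b.

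Mir196a-2 had 7 reads in replicate 1 (1.14 CPM, Wilson interval 0.551 to 2.35) and 6 in replicate 2 (1.13 CPM, 0.518 to 2.46). Mir196a-1 had 0 reads in both libraries, which allows up to 0.488 CPM in replicate 1 and 0.565 CPM in replicate 2, taking 3 reads as the limit of a count of 0. Both genes were below the detection limit, and Mir196b made up 94.9% (89.8 to 97.5) and 91.4% (82.5 to 96.0) of the family's counted reads. These are the 2 genes that share the 22-base miR-196a-5p sequence shown above. Reads mapped to several places were counted to no gene and made up 35.3% and 36.5% of all reads in replicates 1 and 2. How many of them were miR-196a-5p was not tested, so 0 reads does not show that this miRNA was absent.

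**Figure D2:**
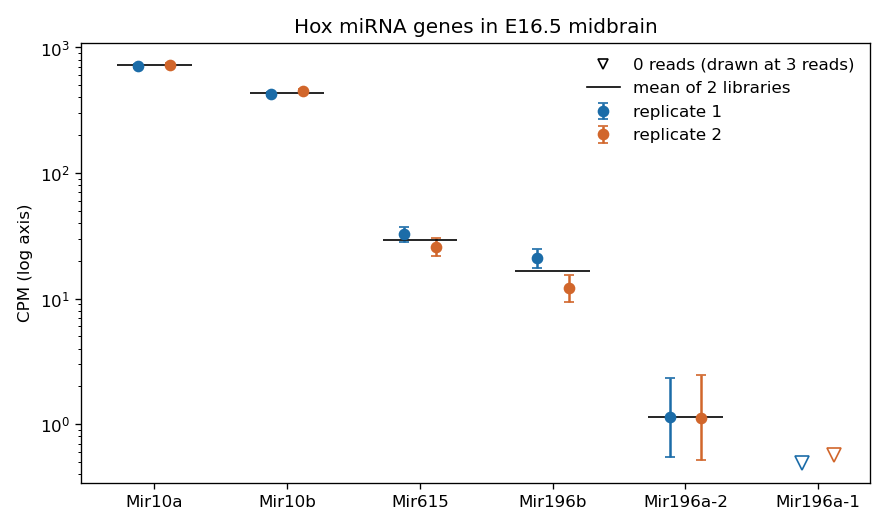
CPM of each gene (log y axis) in replicate 1 and replicate 2, with 95% Wilson intervals and the mean of both as a line. Mir10a and Mir10b lie above 400 CPM, Mir615 and Mir196b between 12.05 and 32.5 CPM, Mir196a-2 near 1.13 CPM, and Mir196a-1 had 0 reads and is drawn at the CPM of 3 reads.

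The order Mir10a, Mir10b, Mir615, Mir196b, Mir196a-2, Mir196a-1 was the same in both libraries, and neighbours in it did not overlap between libraries on the CPM scale. For Mir615 and Mir196b the means differed by 12.5 CPM, against SDs of 4.89 and 6.31 CPM. No test was run between genes, since the smallest two-sided p of an exact permutation test on 2 values against 2 is 0.33.

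The libraries were then compared gene by gene with a two-sided exact binomial test, Benjamini-Hochberg adjusted over the 411 detected genes. It sets 1 library against the other, not conditions, and allows for counting error only. Of the 4 detected Hox miRNA genes 1 was called at an adjusted p under 0.05, against 47.4% of all detected genes, which is no more than the background. That gene was Mir196b, higher in replicate 1, the direction of 29.2% of all detected genes, and 0 of the 4 were called higher in replicate 2, against 18.2%. Mir196b had a log2 ratio of replicate 2 over replicate 1 of -0.79 (exact 95% interval -1.26 to -0.36), with 0.5 reads added to each count, and an adjusted p of 0.000634 by the exact binomial test.

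The other members lay closer between the libraries. Mir615 had a log2 ratio of -0.34 (-0.67 to -0.02), with an unadjusted p of 0.0328 and an adjusted p of 0.0678 by the exact binomial test. Mir10b had a log2 ratio of 0.09 (0.005 to 0.17), with p = 0.0372 and adjusted p = 0.0750 by the same exact test, and Mir10a one of 0.04 (-0.03 to 0.10), with adjusted p = 0.403. For Mir196a-2 the interval ran from -1.86 to 1.79, so a difference of up to 3-fold either way was not detectable at this depth.

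The calls depended on how spread and scale were treated. With TMM library sizes, which moved every log2 ratio up by 0.05, Mir10a (log2 ratio 0.08, adjusted p = 0.0211 by the exact binomial test) and Mir10b (0.13, adjusted p = 0.00314) were called higher in replicate 2 as well. The genes called higher in replicates 1 and 2 then numbered 95 and 90, against 120 and 75 on summed counts. When a biological coefficient of variation of 0.2 between pools was assumed (edgeR exact test), 0 of the 4 were called, against 1.46% of detected genes. The smallest unadjusted p by edgeR was 0.0931, for Mir196b, so 0 of the 4 were under 0.05 before adjustment too.

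Among 102 detected genes between 10 and 100 CPM, the log2 ratio had an SD of 0.57 and a median size of 0.19, and 7 genes, Mir196b among them, had a ratio at least as large as its own in either direction. Of those 7, 4 belong to the epithelium list below. For Mir615 the number was 31 of 102. Among 119 genes between 100 and 1000 CPM, 106 had a ratio at least as large as that of Mir10a and 83 one at least as large as that of Mir10b. On summed counts Mir10a was thus among the steadier genes of its level and Mir10b less clearly so, which is a description and not a test.

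**Figure D3:**
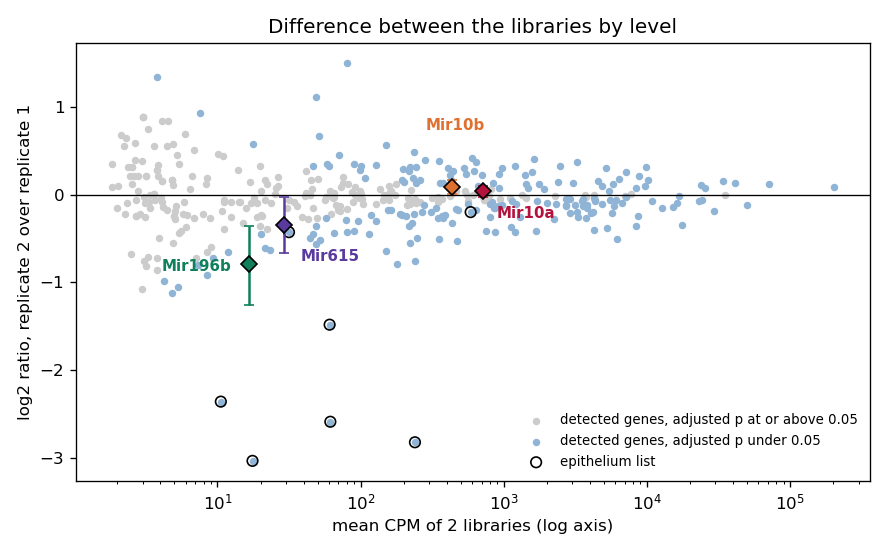
Log2 ratio of replicate 2 over replicate 1 (y axis) against mean CPM (log x axis) for the 411 detected genes, with the 4 detected Hox miRNA genes as labelled diamonds (bars are exact 95% intervals) and the epithelium list circled. Mir10a and Mir10b lie near 0, at 0.04 and 0.09, and Mir196b lies at -0.79, above 5 of the 7 epithelium genes.

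Markers of other cells moved between the libraries as well. The epithelium list (Mir200a, Mir200b, Mir200c, Mir141, Mir429, Mir203 and Mir205, miRNAs that mark epithelial cells) summed to 1327 CPM in replicate 1 and 689 CPM in replicate 2. By the exact binomial test 7 of 7 members were called higher in replicate 1, against 29.2% of all detected genes. That test allows for counting error only, and with the assumed coefficient of variation of 0.2 Mir203 and Mir205 were not called. Mir196b was also higher in replicate 1, by 1.74-fold in CPM, and the list's sum by 1.93-fold. Within that sum Mir203 had 627 and 546 CPM in replicates 1 and 2, a log2 ratio of replicate 2 over replicate 1 of -0.20. Mir429 had 419 and 59.5 CPM, a larger drop. The median log2 ratio over the 7 members was -2.35, larger in size than the -0.79 of Mir196b. Their part in the Mir196b difference was not tested. The list holds Mir203 at 586 CPM as its highest member, and none of its members was at 0 reads.

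Markers of vessels, blood and muscle differed less. The vessel and mesenchyme list, with 7 of 9 members detected, was led by Mir126a (23938 CPM), known from endothelial cells, and summed to 34022 CPM in replicate 1 and 35311 CPM in replicate 2, with Mir145b at 0 reads. The blood list, with 5 of 5 analysed members detected, was led by the erythroid Mir451a (151 CPM) and summed to 481 and 552 CPM. Of the muscle list 1 of 5 analysed members was detected, Mir206 at 17.95 CPM, while 0 reads were counted to Mir1a-1, Mir133a-1 and Mir133a-2. Reads that fit several places are counted to no gene, so these counts of 0 do not show that the muscle miRNAs were absent. Mir10a and Mir10b are known from vessels and blood, so it was not tested how much of their reads came from such cells. The labelled tissue was represented by the brain and neuron list, with 11 of 13 analysed members detected and Mir149 (25498 CPM) at the top. Of the neuronal miR-124 genes, Mir124a-1 was counted at 5.04 CPM, Mir124a-2 at 3.86 CPM and Mir124a-3 at 0.539 CPM. These genes share a mature product whose reads are counted to none of them where they fit several, so the counts do not show that miR-124 was low.

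Mir218-1 and Mir218-2, hosted by Slit genes and known from motor neurons of the brainstem and spinal cord, were the other list tied to neurons near or behind the midbrain. Mir218-2 had 37.6 and 34.3 CPM in replicates 1 and 2, and Mir218-1 had 24.5 and 23.0 CPM. Mir218-1 and Mir218-2 had log2 ratios of -0.10 and -0.13 and neither was called by the exact binomial test. They share a mature product, and reads that fit both genes are counted to neither, so these values may understate their level and were not set against the Hox miRNA genes.

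The mir-10 genes belong to a wider family with mir-99, mir-100 and mir-125, whose members lie outside the Hox clusters. The shared stretches are shown because they place the base that sets miR-10a and miR-10b apart. Capitals mark the longest run that miR-100-5p shares with miR-10a-5p, and that miR-99b-5p shares with miR-10b-5p.
miR-10a-5p: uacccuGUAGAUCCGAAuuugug
miR-100-5p: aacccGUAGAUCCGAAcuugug
miR-10b-5p: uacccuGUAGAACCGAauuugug
miR-99b-5p: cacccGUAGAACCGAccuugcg
The run was 11 bases for miR-10a-5p with miR-100-5p and 10 bases for miR-10b-5p with miR-99b-5p, starting at base 7 of the mir-10 sequence and base 6 of its relative. miR-10a-5p also shared 10 bases with miR-99a-5p. The corresponding base divides the relatives, since miR-99a-5p and miR-99b-5p differ by U11A, among 4 substitutions. The seeds differed: ACCCUGU in the mir-10 pair against ACCCGUA in miR-99a-5p, miR-99b-5p and miR-100-5p.

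All 6 relatives were detected and all 6 were above every Hox miRNA gene. Mir99a had 196414 CPM in replicate 1 and 207577 CPM in replicate 2, and Mir100 had 35353 and 35131 CPM. Mir99b (24269 ± 678 CPM), Mir125a (6419 ± 545), Mir125b-2 (2730 ± 164) and Mir125b-1 (2318 ± 121) followed. Mir125b-1 and Mir125b-2 share the sequence of miR-125b-5p, and reads that fit both are counted to neither, so their values may understate their level as well as being uncertain in their split. The higher Mir10a value, 728 CPM, was below both values of the lowest relative, Mir125b-1 at 2403 and 2232 CPM. Summed over the set, the 6 Hox miRNA genes gave 1190 CPM in replicate 1 and 1218 CPM in replicate 2, against 267799 and 278148 CPM for the 6 relatives.

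**Figure D4:**
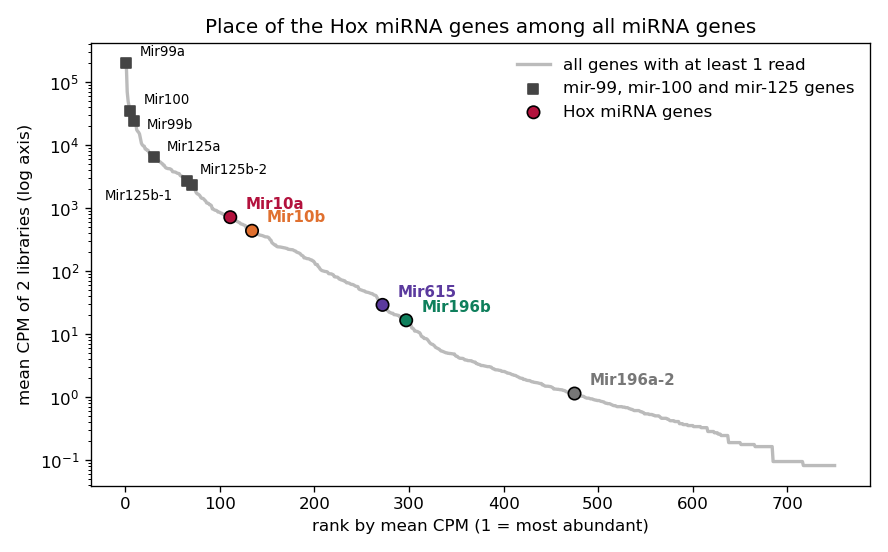
Mean CPM (log y axis) against rank for all genes with at least 1 read (grey line), with the Hox miRNA genes as circles and the mir-99, mir-100 and mir-125 genes as squares. The relatives hold ranks 1 to 70, Mir10a and Mir10b ranks 111 and 134, and Mir615 and Mir196b ranks 272 and 297.

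The mir-196 seed, AGGUAGU, recurs in the let-7 family with a shift of 1 base. Of 1679 mature sequences in the RefSeq table, miR-196a-5p and miR-196b-5p alone held it at bases 2 to 8, whereas 9 held it at bases 3 to 9. Of those 9, 8 were let-7 or miR-98 sequences. The let-7g sequence is shown as an example, with the bases of the mir-196 seed in capitals.
let-7g-5p: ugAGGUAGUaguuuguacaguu
Outside that stretch the sequences differ, and Mir196b shared no run of 14 bases with any hairpin. The seed of the mir-10 pair was held at bases 2 to 8 by no other sequence.

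In mouse embryos miR-196 is known to direct cleavage of the mRNA of Hoxb8, a gene of the same cluster as Mir196a-1. The site is printed because it shows what the base that differs between miR-196a and miR-196b does to pairing. In the 3′ UTR of Hoxb8 (GENCODE M21, transcript on the plus strand, chr11:96284888-96284909), capitals mark the bases opposite the seed.
Hoxb8 site: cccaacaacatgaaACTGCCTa
Of its 22 positions, 21 form Watson-Crick pairs with miR-196a-5p and 1, at base 5 of the miRNA, a G:U pair inside the seed. With miR-196b-5p, the 5′ arm product of Mir196b, 20 positions form Watson-Crick pairs. Mir196b was the only mir-196 gene to reach detection. The gene counts do not name the arm and leave out reads that fit both Mir196a genes, so they do not show which mature product was present. Levels of Hoxb8 mRNA were not measured in these libraries, which held inserts below 30 nt.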

How the data were processed

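MicroRNA-seq was made from 2 libraries of 1 group. For each library the authors deposited a table of raw read counts by miRNA gene, made on mm10 with GENCODE M4, per the text files deposited beside it. The aligner, counter and trimming are not given in the sources used here. Counts were given for either strand, the gene's strand and the opposite strand, and the sense column was used. Rows naming no gene stayed out of library sizes. In replicates 1 and 2, of 13638577 and 12027645 reads, 15.6% and 15.2% were unmapped, 35.3% and 36.5% mapped to several places, and 3.99% and 4.14% fell in no gene.

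CPM was taken over summed sense counts, 6151299 and 5312642. Symbols and positions came from GENCODE M21, also on GRCm38 (mm10), and 1894 of 1973 identifiers matched, all 6 members among them. Mir9-1, Mir142 and Mir1a-2 of the marker lists are not analysed here. Separate pools are named, yet p-values here measure counting error only. A quasi-likelihood test has no contrast in 1 group. Named genes were the members, the 2 genes above and below each in level, the mir-99/100/125 genes, and the top of each marker list. Mir218-1, Mir124a-1, Mir124a-2, Mir124a-3, Mir145b, Mir133a-1, Mir133a-2 and Mir1a-1 were named after their values were seen. The members and lists were chosen with earlier results of these data known. Alternatives were TMM and DESeq2 size factors, read minimums of 1 and 50, either strand, all reads as denominator, hairpin length, a fixed dispersion, and each library alone. Software was R 4.3.3, edgeR 4.0.16, DESeq2 1.42.0, Python 3.11.15, numpy 2.4.6, scipy 1.17.1, pandas 2.3.3 and matplotlib 3.10.9.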

Additional observations from a re-analysis of the deposited data

Results flagged for a closer look

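Reads that mapped to several places lie outside the gene counts, at 4816290 in replicate 1 and 4391928 in replicate 2, and are singled out as a signal in data that no comparison used. They are not listed by gene, so it was not tested how many belonged to miR-196a-5p, whose 22 bases occur in both Mir196a-1 and Mir196a-2.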

How the results depend on the processing

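The order of the 6 genes was the same in each library alone. TMM and DESeq2 size factors and all reads as denominator scale every gene of a library alike, so they could not change it. Per 100 bases of hairpin the order of the 6 genes was the same for the means, while in replicate 2 Mir10b (663 CPM) was just above Mir10a (662 CPM). Their share of reads was 0.0537% of all reads and 0.117% of reads on either strand, both by construction of the larger denominator, and from 0.119% to 0.122% in single libraries. The number of detected members was 4, or 5 with a minimum of 1 read. The members called different between libraries numbered 3 with TMM library sizes and 3 with DESeq2 size factors, with 185 of 411 genes called in each setting. They numbered 0 under the edgeR exact test with an assumed coefficient of variation of 0.2 (6 of 411 genes called). Mir196b alone was called with a minimum of 1 read (200 of 614 genes called), of 50 reads (185 of 309) or either strand (202 of 422). The added calls, with TMM and DESeq2 size factors, were Mir10a and Mir10b. Their log2 ratios were then 0.08 and 0.13, against 0.04 and 0.09 on summed counts. The reads were unchanged, so the added calls follow from the changed library sizes by construction. Which scaling suits these pools was not tested. The log2 ratio of Mir10a over Mir10b was 0.0239 per 100 bases of hairpin, by construction of the length term, and 0.69 to 0.74 in single libraries. Of 36 alternatives for single-gene levels, 29 stayed within 1 SD, 7 moved and 0 reversed. The 7 that moved took all reads or reads on either strand as denominator. Many of the 29 could not have moved, so their number does not measure stability. With 2 libraries, each library alone lies within 1 SD of the mean by construction, and Mir196a-1 was 0 in every setting. No paired analysis was possible because there was 1 group. Depth limits Mir196a-1 and Mir196a-2 only to their counted reads.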
